A study of Mus musculus with 8 samples.

Results

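Apolipoproteins are the protein coats and docking surfaces of the particles that carry lipid in blood. The 10 apolipoprotein genes described here are Apoa1, Apoa2, Apoa4, Apoa5, Apob, Apoc1, Apoc2, Apoc3, Apoe and Apom, taken by symbol from a deposited table of 16640 genes, in which all 10 were found. The samples were whole livers of mice aged 1 year that were fed a standard chow without restriction. The KO group held 4 livers with a liver-specific deletion of Huwe1, a large ubiquitin ligase, and the WT group held 4 livers with the gene intact. The series asks how loss of Huwe1 in the liver bears on fatty liver disease and lipid metabolism. Neither labels nor design text name the driver of the deletion, the deleted exons or the sex of the mice.

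The authors' deposited table gives 1 depth-normalized expression value per gene and group, called normalized reads below, with a log2 fold change of KO over WT and p-values from DESeq2. Single livers were not analysed here, so a level has no SD, and whether livers of the groups overlap cannot be said. The deposited fold change is the ratio of both group values and appears shrunken toward 0 where reads are few or livers vary, so the group values need not be plain means of the livers. The error of a change is the standard error (SE) that the deposited unadjusted p implies, and 95% intervals were built from it. Where a fold change is shrunken, its interval may be too narrow. A gene was called at a deposited p under 0.05 after Benjamini-Hochberg adjustment over all genes. In bulk tissue, fewer cells of a type and less RNA per cell cannot be told apart.

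The liver makes most plasma apolipoproteins, and the intestine makes several of them too. ApoB is the scaffold of triglyceride-rich particles, which hepatocytes load with lipid and release as very-low-density lipoprotein. ApoA-I and apoA-II build high-density lipoprotein, while apoC-II, apoC-III and apoA-V tune how fast lipoprotein lipase empties triglyceride-rich particles, and apoE leads their remnants back into the liver.

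Of the 10 genes, Apoa1 was higher in KO livers, Apoa2, Apoa4 and Apoc2 were lower, and 6 did not pass the test. Over all genes 9.97% were called, 4.41% as higher and 5.56% as lower in KO. All 10 members had a mean value above 1000 normalized reads, where more genes were called, namely 21.5% of 2196 genes, 6.01% as higher and 15.5% as lower. The median log2 fold change of the members was -0.15, against -0.08 for the 2196 genes of that level and 0.02 for all genes. Where the fold changes were centred on the most abundant 12.5% of genes, 1 member stayed higher and 1 lower, since Apoa2 and Apoc2 no longer passed (adjusted p = 0.085 and 0.0691). The split of all called genes moved with them, to 1168 higher and 625 lower, against 734 higher and 925 lower as deposited.

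**Figure D1:**
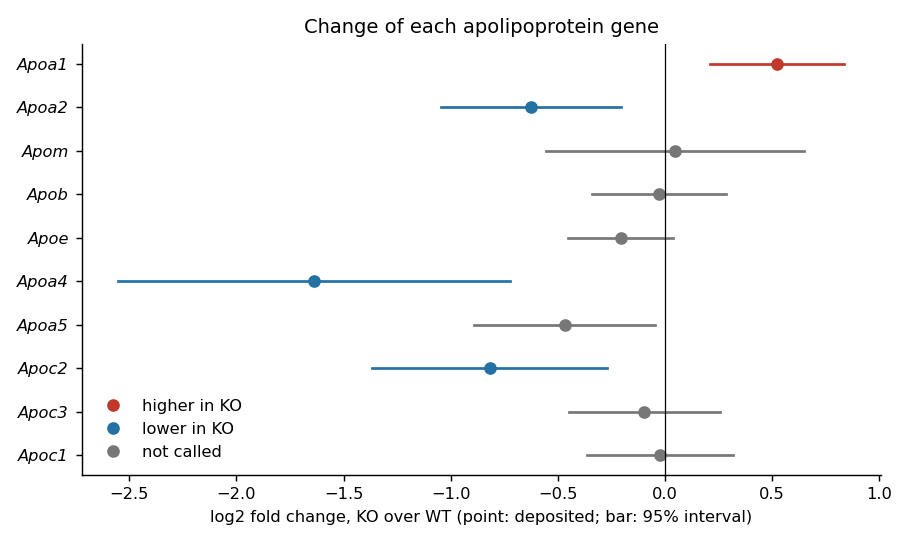
Deposited log2 fold change of KO over WT (x axis) for the 10 apolipoprotein genes (y axis), with 95% intervals from the implied SE. Apoa1 lies above 0 at 0.52, Apoa4 lies farthest below at -1.64 with the widest interval, and Apob and Apoc1 sit at -0.03 and -0.02.

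The transcripts for the main proteins of high-density lipoprotein moved in opposite directions as deposited, and protein was not measured. Apoa1, which activates the enzyme that esterifies cholesterol in plasma, had 210440 normalized reads in KO livers and 146303 in WT livers in the authors' deposited table. This was a 1.44-fold rise, with a log2 fold change of 0.52, an implied SE of 0.16 and a DESeq2 adjusted p of 0.0152. Apoa2, the second most abundant protein of these particles, had 106683 normalized reads in KO livers and 164596 in WT livers in the deposited table. Its level in KO was 64.8% of that in WT (log2 fold change -0.63, implied SE 0.21, DESeq2 adjusted p = 0.0392), a call that was lost under the centring named above. Per kb of transcript, the ratio of Apoa1 to Apoa2 was 1.04 in KO livers and 0.467 in WT livers, a difference of 1.15 between their log2 fold changes. With the longest GENCODE transcript as length, an alternative chosen after seeing the data, the ratio was 0.987 in KO and 0.445 in WT. An error for that difference needs values per liver and was not computed.

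Apom, a lipocalin that carries sphingosine-1-phosphate on high-density lipoprotein, was the least abundant member by read number. Apom stood at 1210 normalized reads in KO livers and 1172 in WT livers in the authors' deposited table. This did not pass (DESeq2 adjusted p = 0.964). Its 95% interval on the log2 scale ran between -0.56 and 0.65, so changes from 0.68-fold to 1.57-fold lie within the error.

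Apob and Apoe, which mark particles for assembly and for uptake, did not pass. Apob had 52168 normalized reads in KO livers and 53219 in WT livers in the deposited table. The log2 fold change was -0.03, with a 95% interval from -0.34 to 0.28. The sign of so small a value depends on centring, as it was 0.053 when centred on the most abundant 12.5% of genes. The editing that makes the short form apoB-48 from the same transcript is not visible in a gene-level value. Apoe, a ligand for receptors that take up remnants, had 393183 normalized reads in KO livers and 453968 in WT livers in the authors' deposited table. Its log2 fold change was -0.21 with the smallest implied SE of the 10 genes, 0.13, and a DESeq2 adjusted p of 0.371. Macrophages also make apoE, and their summed marker level was 5886 normalized reads in KO and 5045 in WT over 16 of 16 listed genes. None of those 16 passed in the authors' DESeq2 result, 0 reached an unadjusted p of 0.05, and their part in the Apoe value was not tested.

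The members that act on triglyceride-rich particles held the largest fall. Apoa4, an exchangeable apolipoprotein best known from the intestine and known in mouse liver to follow its lipid load, had 2377 normalized reads in KO livers and 7402 in WT livers in the authors' deposited table. It was 3.11-fold lower in KO (log2 fold change -1.64, implied SE 0.47, DESeq2 adjusted p = 0.00791). As deposited, Apoa4 was the sole member past a stricter threshold of 0.01. When centred on the most abundant genes, Apoa1 passed that threshold (adjusted p = 0.00324) and Apoa4 did not (adjusted p = 0.0125). Among the 2196 genes with a mean value of 1000 or more, 99.1% changed less than Apoa4, and 98.4% had a smaller implied SE. The 95% interval of its log2 fold change ran between -2.55 and -0.72.

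Apoc2, the cofactor that lipoprotein lipase needs, had 3592 normalized reads in KO livers and 6337 in WT livers in the deposited table. Its level in KO was 56.7% of that in WT (log2 fold change -0.82, implied SE 0.28, DESeq2 adjusted p = 0.0381), and this call too was lost when centred on the most abundant 12.5% of genes. Apoc3, which slows lipolysis and remnant uptake, had 37189 normalized reads in KO livers and 39746 in WT livers in the authors' deposited table. It did not pass, with a log2 fold change of -0.10 and a 95% interval from -0.45 to 0.26. The ratio of Apoc3 to Apoc2 per kb was thus 13.0 in KO livers and 7.86 in WT livers.

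Apoa5, which supports lipolysis at the vessel wall, had 20949 normalized reads in KO livers and 28988 in WT livers in the authors' deposited table. Its log2 fold change of -0.47 had an unadjusted p of 0.0301 and did not pass after adjustment (DESeq2 adjusted p = 0.176). Apoc1, a small protein that hinders remnant uptake, had 73557 normalized reads in KO livers and 74726 in WT livers in the deposited table. Its log2 fold change was -0.02 with a 95% interval from -0.37 to 0.32, and it turned to 0.059 when centred on the most abundant 12.5% of genes.

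Compared per length, the members spanned a wide range of levels, and several stood among the most abundant transcripts of the liver. Apoe led the members with 320966 normalized reads per kb in KO livers and 370586 in WT livers, and among all genes it ranked 3 in KO and 2 in WT. Apoa1 came next in KO at 212996 per kb, close to Apoa2 and below it with the GENCODE length, against 148080 in WT, where it stood after Apoa2 and Apoc1. Apoa2 had 205555 per kb in KO and 317140 in WT. In rank over all genes Apoa1 stood at 4 in KO and 7 in WT, and Apoa2 at 5 in KO and 4 in WT.

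Apoc1 followed at 169878 per kb in KO and 172577 in WT, and Apoc3 at 70433 per kb in KO and 75277 in WT. Apoa5 (8995 per kb in KO, 12446 in WT), Apoc2 (5426 and 9573) and Apob (3745 and 3820) formed a middle range, in which the long Apob transcript ranks far lower than its read number does. Apom had 1656 per kb in KO and 1603 in WT. Apoa4 had 1427 per kb in KO, the lowest level of the 10 genes there, and 4443 in WT, which put it above Apob and Apom in those livers. Without values per liver it cannot be said which neighbours in this order differ beyond the spread. All 10 genes together held 5.14% of all normalized reads in KO and 5.63% in WT, with sums of 901348 and 976457, of which Apoe alone made up 2.24% of all reads in KO and 2.62% in WT.

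**Figure D2:**
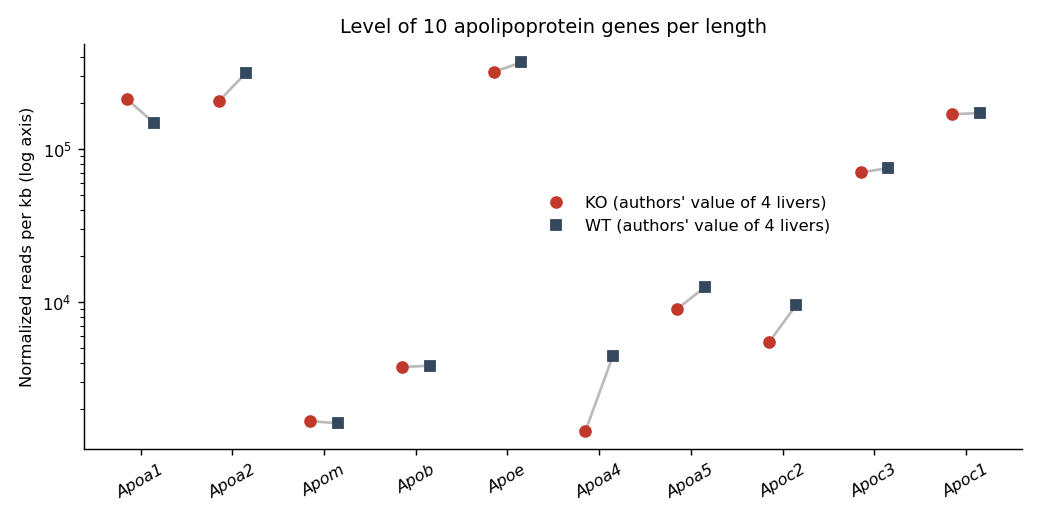
Level of each apolipoprotein gene in normalized reads per kb of gene length (y axis, log scale), with the KO value as a circle and the WT value as a square. Apoa1 is the one called gene with its KO point above the WT point, 212996 against 148080, and Apoa4 shows the steepest fall, to 1427 in KO against 4443 in WT.

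**Figure D3:**
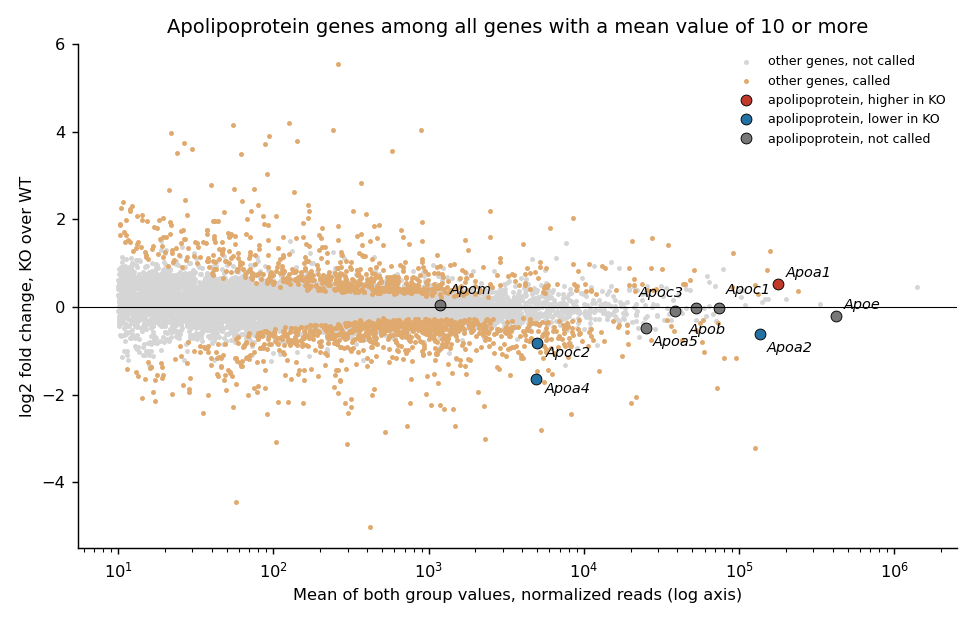
Deposited log2 fold change of KO over WT (y axis) against the mean of both group values in normalized reads (x axis, log scale) for genes with a mean of 10 or more, with the 10 apolipoprotein genes marked. Apoe, Apoa1 and Apoa2 lie at the abundant end, and Apoc2 and Apoa4 lie below 0 at mean values of 4965 and 4890.

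Of the members, 7 lie in a pair of gene clusters, and in each cluster some members were called and others were not. On chromosome 9 (GRCm38), Apoa1, Apoc3, Apoa4 and Apoa5 lie within 43.3 kb, at 46228630 to 46271921. Apoa1 (46228630 to 46230469) was higher in KO, while Apoa4 (46240844 to 46243458), 12.2 kb further along, was lower, and Apoc3 between them did not pass. The flanking genes were near 0, with log2 fold changes of 0.00 for Sik3 and 0.12 for Zpr1 in the authors' deposited table, and neither passed (DESeq2 adjusted p = 1.00 and 0.849). Of 9 listed genes around this cluster, Pafah1b2 alone passed (log2 fold change 0.34, DESeq2 adjusted p = 0.0356), 11.1% against 9.97% of all genes. Pafah1b2 no longer passed when centred on the median of all genes.

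On chromosome 7 (GRCm38), Apoc2, Apoc1 and Apoe lie within 29.7 kb, at 19671579 to 19701310. Apoc2 (19671579 to 19677941) was lower in KO, while its next neighbour Apoc4, another apolipoprotein gene, had 18373 normalized reads in KO livers and 17575 in WT livers in the deposited table and did not pass (log2 fold change 0.06, DESeq2 adjusted p = 0.906). The annotation also holds Gm44805, a read-through gene over Apoc4 and Apoc2 that shares 6358 bases of the same strand with Apoc2. In the deposited table Gm44805 had 70.1 normalized reads in KO and 55.7 in WT. How reads of shared bases were counted is not stated, so the part of read-through transcripts in the Apoc2 and Apoc4 values is unknown. None of 10 listed genes around the cluster passed in the authors' DESeq2 result (2 had an unadjusted p below 0.05), and Clasrp passed as higher when centred on the most abundant 12.5% of genes. On the opposite strand, GENCODE places Gm10680 over 839 bases and Gm47528 over 1337 bases of Apoa4, and Gm47544 over 1331 bases of Apoa5. No source used here says whether reads were counted by strand, so reads of these pairs cannot be told apart. The other members lie alone, Apoa2 on chromosome 1 (171221564 to 171226379), Apob on chromosome 12 (7977629 to 8016839) and Apom on chromosome 17 (35128997 to 35131801).

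**Figure D4:**
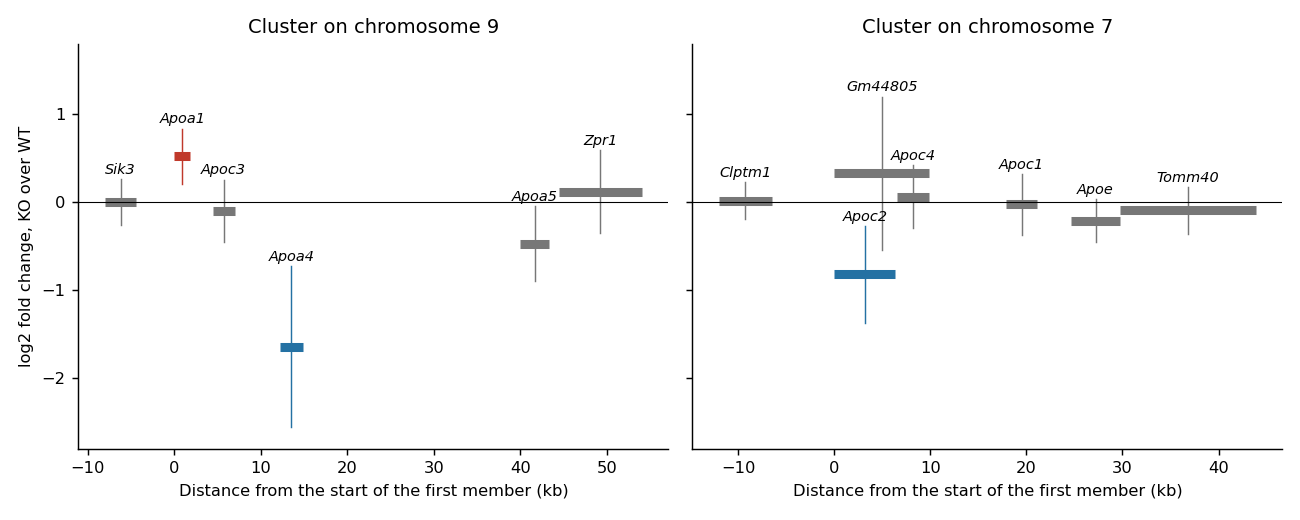
Deposited log2 fold change of KO over WT (y axis) of the genes in both apolipoprotein clusters, drawn as bars over their extent in kb from the start of the first member (x axis), with thin lines for 95% intervals. Sik3 and Clptm1 reach further left than drawn; in both clusters a called gene lies beside genes near 0, as with Apoc2 at -0.82 next to Apoc4 at 0.06.

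The promoters of the 4 called genes are shown because these genes passed as deposited, Apoa1 and Apoa4 in opposite directions within 1 cluster. Each runs 5′ to 3′ on the gene's own strand, from 250 bases before a RefSeq start to 50 bases into the transcript (GRCm38.p6). Where a gene had more than 1 RefSeq start, the one nearest to the GENCODE start was taken. The windows are chr9:46228380-46228679 (plus strand) for Apoa1, chr9:46240594-46240893 (plus strand) for Apoa4, chr1:171224804-171225103 (plus strand) for Apoa2 and chr7:19677892-19678191 (minus strand) for Apoc2. Capitals mark matches, on either strand, to 5 of 6 motifs searched, chosen with the results known; the other one matched none of the 8 member windows and is not reported here. These were the letters TATAAA and the box CCAAT, the core CAAAGNNCA of sites bound by HNF4-type receptors and the forkhead core TGTTTAC. Also among them was AGNTCA, a loose form of the receptor half-site AGGTCA with any base at N. Its matches are called half-site matches below, though not all of them read AGGTCA.
Apoa1: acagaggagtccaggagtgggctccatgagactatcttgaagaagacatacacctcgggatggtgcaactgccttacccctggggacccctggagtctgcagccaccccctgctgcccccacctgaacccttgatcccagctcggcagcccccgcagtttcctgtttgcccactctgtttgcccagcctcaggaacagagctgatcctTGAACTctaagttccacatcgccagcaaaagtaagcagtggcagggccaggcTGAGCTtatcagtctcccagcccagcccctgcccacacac
Apoa4: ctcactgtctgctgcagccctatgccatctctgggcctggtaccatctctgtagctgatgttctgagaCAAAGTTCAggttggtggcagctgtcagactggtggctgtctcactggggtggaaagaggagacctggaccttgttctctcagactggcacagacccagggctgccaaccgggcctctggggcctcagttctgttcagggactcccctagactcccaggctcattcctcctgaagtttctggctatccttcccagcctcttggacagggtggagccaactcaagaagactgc
Apoa2: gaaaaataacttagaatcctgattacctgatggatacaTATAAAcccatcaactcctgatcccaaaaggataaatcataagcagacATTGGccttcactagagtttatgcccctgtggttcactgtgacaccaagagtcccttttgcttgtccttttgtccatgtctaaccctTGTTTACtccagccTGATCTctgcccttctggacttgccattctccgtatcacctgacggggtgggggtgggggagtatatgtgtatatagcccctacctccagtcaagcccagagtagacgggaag
Apoc2: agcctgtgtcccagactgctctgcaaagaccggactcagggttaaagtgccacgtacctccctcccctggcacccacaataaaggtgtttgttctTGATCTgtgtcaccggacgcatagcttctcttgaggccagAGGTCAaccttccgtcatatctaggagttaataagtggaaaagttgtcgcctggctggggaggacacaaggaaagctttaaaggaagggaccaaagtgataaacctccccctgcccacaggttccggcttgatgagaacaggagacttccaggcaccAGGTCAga
In the Apoa4 window, CAAAGTTCA matched the HNF4-type core at bases -182 to -174 from the start, overlapping a half-site match. That core occurs in 6.36% of all 32851 windows, and among the 8 members with a window it was also found in Apob. Of the motifs searched, the Apoa1 and Apoc2 windows matched the loose half-site pattern only, with 2 matches in Apoa1 and 3 in Apoc2. Such a match occurs in 46.6% of all windows. In Apoc2, the matches at bases -115 to -110 and 42 to 47 read AGGTCA. Sites that differ from the letters searched are missed, so a window without a match may still hold a receptor site. The Apoa2 window held TGTTTAC at bases -77 to -71 (3.65% of windows), TATAAA at -212 to -207 (13.6%), CCAAT (37.4%) and 1 half-site match. That TATAAA match lies far upstream of the start. The GENCODE start and the RefSeq start nearest to it lie 148 bases apart for Apoa4 and 50 for Apoa1, and coincide for Apoa2 and Apoc2. For Apoa2 the window lies inside the gene's full extent, which a longer form sets.

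Apolipoprotein genes outside the 10 were called in both directions. Of 14 listed, 1 was higher and 1 lower in KO, 14.3% against 9.97% of all genes, with a median log2 fold change of 0.06. Apol10b, of the apolipoprotein L family, had 45.2 normalized reads in KO livers and 10.5 in WT livers in the authors' deposited table (DESeq2 adjusted p = 0.00134), and reads of this family of similar genes may have been shared. Apoo, which despite its name encodes a protein of the inner mitochondrial membrane, had a log2 fold change of -0.40 (DESeq2 adjusted p = 0.0419), a call lost when centred on the most abundant 12.5% of genes. The most abundant others did not pass, with deposited log2 fold changes of 0.06 for Apoh, 0.06 for Apoc4 and -0.12 for Apof.

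Genes that build and release lipoprotein particles had a median log2 fold change of -0.13. Of 21 listed, 1 was called, 4.76% against 9.97% of all genes. That gene was Mttp, the transfer protein that loads lipid onto apoB, with 3007 normalized reads in KO livers and 4757 in WT livers in the authors' deposited table (a log2 fold change of -0.66, implied SE 0.20, DESeq2 adjusted p = 0.0159). Mttp passed under all 3 centrings tried. The most abundant others did not pass, with deposited log2 fold changes of 0.47 for Clu, -0.18 for P4hb, the partner subunit of Mttp, and -0.09 for Pdia3.

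Among 25 genes of lipoprotein remodelling and clearance, 3 were lower and 0 higher in KO in the authors' DESeq2 result. This was 12.0% in all, against 9.97% of all genes. The median log2 fold change of the 25 was -0.03, and 8 of them had an unadjusted p below 0.05. Of these, Pltp, which moves phospholipid onto high-density lipoprotein, had 505.9 normalized reads in KO livers and 4104 in WT livers in the authors' deposited table (a log2 fold change of -3.02, DESeq2 adjusted p = 4.67e-51). The most abundant others did not pass, with deposited log2 fold changes of 0.16 for the receptor Lrp1, -0.28 for the paraoxonase Pon1 and 0.31 for Lcat, the enzyme that apoA-I activates (DESeq2 adjusted p = 0.0546). Lcat and Angptl4 passed as higher when centred on the most abundant 12.5% of genes. Of 12 genes for apolipoprotein receptors and editing of the Apob transcript, 1 was lower in KO, 8.33% against 9.97% of all genes. The editing enzyme Apobec1 had a deposited log2 fold change of 0.24 (DESeq2 adjusted p = 0.769), and the abundant Lrp1, Scarb1 and Rbm47 had 0.16, -0.02 and -0.04.

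Transcription factors known to act on apolipoprotein genes were called in both directions, with 4 higher and 4 lower of 38, 21.1% in all. The share was 9.97% over all genes and 21.5% over the 2196 genes with a mean value of 1000 or more, a level that not all of the 38 reach. The nuclear receptor Hnf4a, a main activator of these promoters in liver, had 11654 normalized reads in KO livers and 8990 in WT livers in the authors' deposited table (a log2 fold change of 0.37, DESeq2 adjusted p = 0.0318). Foxa3, a forkhead factor of hepatocytes, was higher as well (log2 fold change 1.02, DESeq2 adjusted p = 1.97e-05). Prox1 (0.51) and Nr2f2 (0.33) passed as higher in the deposited log2 fold changes, but not when centred on the median of all genes. The liver X receptor gene Nr1h3, which senses oxysterols, was lower (log2 fold change -0.34, DESeq2 adjusted p = 0.00863), as were Mlxipl, Srebf1 and Pparg, at -0.41, -0.88 and -2.09 in the deposited log2 fold changes. When centred on the most abundant 12.5% of genes, 6 were higher and 2 lower, the calls of Nr1h3 and Mlxipl being lost. The most abundant others did not pass, with deposited log2 fold changes of -0.10 for Cebpa, 0.03 for Rxra and 0.10 for Creb3l3, which in mice activates Apoa4 and Apoc2.

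**Figure D5:**
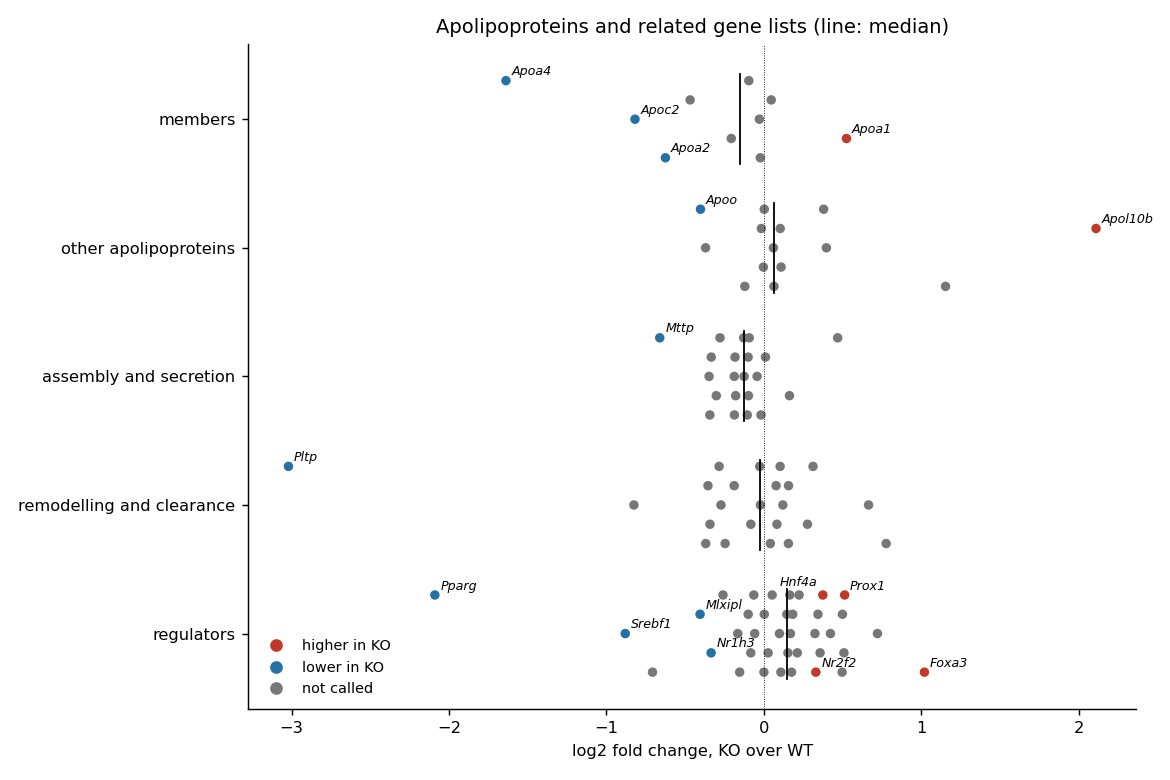
Deposited log2 fold change of KO over WT (x axis) of genes in the 10 members and 4 related lists (rows), with called genes coloured and named and a line at the median of each whole list; genes not reported here are not drawn. Pltp at -3.02 and Apol10b at 2.11 lie farthest out, and the medians lie between -0.15 and 0.15.

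Of the terms in the authors' annotation, 8 of the 10 members carry very-low-density lipoprotein particle and 8 carry chylomicron. The first term covers 17 genes, and of its 9 other genes 1 was higher and 1 lower in KO. Over all genes 9.97% were called, and 21.5% of those with a mean value of 1000 or more, a level that both called genes reach. The remnant receptor subunit Lsr had 4338 normalized reads in KO livers and 2554 in WT livers in the deposited table (log2 fold change 0.76, DESeq2 adjusted p = 0.000128). Pcyox1, an oxidase found on these particles, had 1840 normalized reads in KO and 2778 in WT in the same deposited table (log2 fold change -0.59, DESeq2 adjusted p = 0.00107).

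As a check of the label, Huwe1 had 1784 normalized reads in KO and 2666 in WT in the authors' deposited table, 66.9% of the WT level (DESeq2 adjusted p = 0.000425). Hepatocyte markers were abundant in both groups, summing to 2341300 normalized reads in KO and 1802280 in WT over 9 genes, with 1 called as higher. Alb made up most of both sums, with 1629590 in KO and 1192100 in WT, and did not pass (DESeq2 adjusted p = 0.0631). The called gene was Serpina1c (log2 fold change 0.37), while Tat, at -0.48, did not pass. In all, 7 of the 9 had a log2 fold change above 0. Enterocytes are another source of Apoa4, Apoa1 and Apob, and of 14 enterocyte markers 4 (Alpi, Cdx1, Cdx2 and Sis) were not listed in the table, while Lct, Muc13, Mep1a and Slc15a1 were each below 2 normalized reads in both groups. Among the other 6, Vil1 was higher and Fabp2 and Treh were lower. The markers of neutrophils summed to 294.9 in KO and 151.3 in WT, with 2 of 9 called higher, and those of cholangiocytes to 2055 and 1244, with 1 of 9 called higher. Adipocyte markers summed to 84.7 in KO and 951.4 in WT. Cidea made up most of the WT sum, with 24.9 in KO and 812.3 in WT, and Cfd most of the KO sum, with 57.8 and 135.1. The defining Adipoq and Lep were below 1 normalized read in both groups. Stellate cell (8641 in KO, 7975 in WT) and endothelial markers (3003 in KO, 2788 in WT) had 1 called as higher each, Hand2 of 10 and Fcgr2b of 9. The part of other cell types in the members' values was not tested.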

How the data were processed

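Total RNA of 4 KO and 4 WT livers was extracted with a commercial kit, and a company built and sequenced the libraries, per the labels' protocols. The submitters' processing notes name mm10 and DESeq2. The aligner, the counter and all versions are not stated there. Per the file headers, 1 table was deposited, holding a depth-normalized signal for each gene in each group, log2 fold changes and p-values. The deposited p-value adjustment matched Benjamini-Hochberg over all genes to within 1.74e-06. The gene lengths, used as a score per gene to set levels per kb, were deposited too. Group values sum to 17533080 in KO and 17347886 in WT, and depth per liver is unknown. In 707 genes with about 1 read the deposited log2 fold change was 0.11 to 0.12 in size, so fold changes, and the group values whose ratio they are, appear shrunken toward 0, which understates those of variable genes.

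The design called for a count model if values per liver existed; with group values, the authors' DESeq2 calls were used. The implied SE is the size of the log2 fold change divided by the normal score of its two-sided p, which assumes a Wald test; only its arithmetic was tested on simulated data. The labels number the livers but name no litter or batch. The p-values rest on these 8 livers, and litter or batch could not be taken into account. Named genes were all members and, of each related list, the called genes and the 3 most abundant others; Apobec1, Lsr, Pcyox1 and genes named from the marker lists were added after their values were seen. Some called genes of the related lists are not reported here. Members, lists and motifs were chosen with earlier results of these data known. Positions, and promoters of 8 of 10 members, are from RefSeq (GRCm38.p6, the assembly of mm10), overlaps from GENCODE M21. Tables were read with pandas 2.3.3 and numpy 2.4.6 under Python 3.11.15, normal scores came from scipy 1.17.1, and plots from matplotlib 3.10.9. Alternatives were centring, threshold, adjustment over genes with a mean value of 10 or more, a minimum change, a pseudocount and gene length.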

Additional observations from a re-analysis of the deposited data

How the results depend on the processing

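Apoa1 and Apoa4 kept their direction and stayed past an adjusted p of 0.05 under all 3 centrings and under adjustment over 12309 genes with a mean value of 10 or more; a pseudocount of 1 changes values only, since no p can be recomputed with it. The count of members called was 4 as deposited and 3 when a change of at least 1.5-fold was also asked for, which drops Apoa1. It was 2 when centred on the median of the most abundant 12.5% of genes (a shift of -0.08) and 1, Apoa4, at a deposited adjusted p under 0.01. Under that centring the log2 fold change of Apob turned to 0.053 and that of Apoc1 to 0.059, neither past the threshold. Centring on the median of all genes moved every log2 fold change by 0.02. Ranks in KO depend on gene length. Without length correction Apob ranked 40 in place of 352, Apoa2 19 in place of 5, Apoc1 25 in place of 7, Apom 1763 in place of 718 and Apoc2 576 in place of 247. With the longest GENCODE transcript of 1 gene at a time, Apoa1 ranked 5 in place of 4, below Apoa2, Apom 941 in place of 718, and Apoa4 880 in place of 824. No paired analysis was possible because the values are 1 per gene and group, and for the same reason leaving out livers, edgeR and other size factors were not run. Precision is limited by 4 livers per group, most of all for Apoa4, Apom and Apoc2.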
